A study of Mus musculus with 6 samples.

Results

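Ewsr1 encodes an RNA-binding protein of the FET family, and its transcript was described here in mouse hippocampus beside those of 5 related RNA-binding proteins. The 6 genes were Ewsr1, Taf15, Tardbp, Hnrnpa1, Hnrnpa2b1 and Matr3, taken by symbol from a table of 55414 genes, and all 6 were found and passed the minimum level for testing. Ewsr1 was selected on its measured levels: it was chosen by its CerM values, each of which lies above every vehicle value, so that difference is a description and carries no test. The other 5 were added as related RNA-binding proteins. Each gene has 1 row in the table.

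RNA was sequenced from the hippocampus of mice given CerM (3 libraries) and mice given vehicle (3 libraries), and the series compared gene expression between both. The labels do not spell out CerM, and give no dose, duration, strain, sex or age. The title of the series concerns mitochondrial function and depression induced by corticosterone, with ceramides raised by altered gut microbes. The titles call the libraries biological replicates without saying how many mice they came from. The p-values therefore cover only the variation among these libraries, which may not be the variation among single mice. Values are TPM, a transcript level that the authors scaled for transcript length and library total, so levels can be compared between genes. TPM keeps no sequencing depth, and the number of reads behind a value is unknown. In whole tissue, fewer cells of a type and less RNA per cell cannot be told apart.

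FET proteins, EWSR1 and TAF15 among them, join a disordered segment rich in glycine, serine, tyrosine and glutamine to an RNA recognition motif, a zinc finger and arginine-glycine repeats. They act in transcription and splicing and shuttle between nucleus and cytoplasm. TDP-43 (Tardbp), hnRNP A1 (Hnrnpa1), hnRNP A2/B1 (Hnrnpa2b1) and matrin 3 (Matr3) bind RNA through similar motifs and control splicing, transport and stability. Human mutations in several of these genes are known from amyotrophic lateral sclerosis or frontotemporal dementia, and the proteins gather in condensates such as stress granules.

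Related genes can be told apart in a table of levels only where their sequences differ. Sequences and positions come from the GENCODE M21 annotation of GRCm38, an older build than the GRCm39 named in the submitters' processing notes. On that build Ewsr1 spans chr11:5069689-5099266 on the minus strand. Over aligned coding sequence, Ewsr1 was 68.8% identical to Taf15, with a longest identical run of 15 bases. A search with the Ewsr1 coding sequence found 3 pseudogenes at 90% identity or more over at least 100 bases, Gm6627, Gm7517 and Gm7962. Together they were listed at 0 TPM in every CerM library and at no more than 0.09 TPM in any vehicle library. The table lists almost no TPM at the copies of Ewsr1, and no copy of Taf15 met the limits.

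Ewsr1 had 381.95, 406.83 and 444.58 TPM in CerM libraries 1 to 3, against 277.80, 345.88 and 257.76 TPM in vehicle libraries 1 to 3. The lowest CerM value, in library 1, lay above the highest vehicle value, in library 2, and the groups did not overlap. Means were 411 ± 31.5 TPM in CerM libraries and 294 ± 46.2 TPM in vehicle libraries (n = 3 each, SD), a ratio of 1.4. The log2 fold change of TPM + 1 was 0.49 ± 0.13 (SE of the limma fit). The spread of Ewsr1 within groups was an SD of 0.174 on the log2 scale, where 2998 tested genes at 50 TPM or more had a median of 0.138 and quartiles of 0.098 and 0.193.

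The levels of Ewsr1 were also read on 2 other scales. After median-ratio scaling, Ewsr1 stood at 397.2, 368.7 and 451.5 in CerM libraries 1 to 3, against 292.0, 349.1 and 250.2 in vehicle libraries 1 to 3. With genes of mitochondrial DNA taken out of the total, it stood at 452.4, 457.1 and 531.7 TPM in CerM and at 326.0, 400.6 and 292.6 TPM in vehicle. The groups kept apart on both scales, by a smaller margin on the first. Vehicle library 2 was the closest to the CerM values on every scale.

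**Figure D1:**
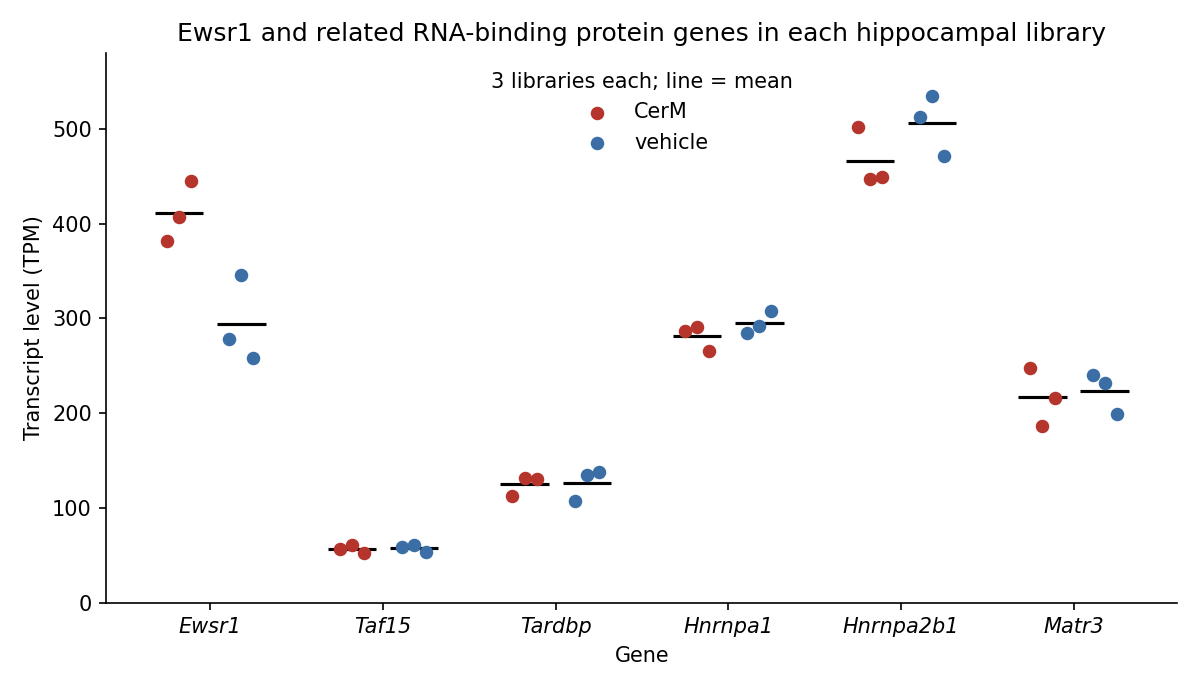
Transcript level (TPM, linear axis from 0) of Ewsr1 and its 5 relatives in each hippocampal library, with 3 CerM points left of 3 vehicle points per gene and a line at each mean. Ewsr1 is the gene whose groups are apart, with CerM between 381.95 and 444.58 TPM and vehicle between 257.76 and 345.88 TPM, while the groups of the other 5 genes overlap.

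Taf15, the other FET gene among the 6, had 56.07, 60.50 and 52.48 TPM in CerM libraries 1 to 3 and 59.05, 60.84 and 53.57 TPM in vehicle libraries 1 to 3. The ranges nearly coincided, with library 2 highest and library 3 lowest in each group. The log2 fold change was −0.04 with a 95% confidence interval of −0.27 to 0.19 (limma, adjusted p = 0.99). Taf15 also had the lowest level of the 6 genes, at 56.3 ± 4.02 TPM in CerM libraries and 57.8 ± 3.79 TPM in vehicle libraries (n = 3 each, SD).

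Tardbp encodes TDP-43, which represses cryptic exons and regulates its own transcript. It had 112.10, 131.72 and 130.22 TPM in CerM libraries 1 to 3 and 107.37, 134.93 and 137.81 TPM in vehicle libraries 1 to 3. Library 1 was the lowest in each group, and the ranges overlapped. On the log2 scale the fold change was −0.02 (−0.31 to 0.27, limma, adjusted p = 0.994), and leaving out single libraries moved it between −0.13 and 0.06.

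Hnrnpa1 encodes a splicing repressor that shuttles with mRNA. It had 286.39, 290.58 and 265.46 TPM in CerM libraries 1 to 3, against 284.08, 292.36 and 307.82 TPM in vehicle libraries 1 to 3. Its spread was the smallest of the 6 genes, an SD of 0.064 within groups on the log2 scale. Its log2 fold change was −0.07 (−0.26 to 0.12, limma, adjusted p = 0.989), and the groups overlapped.

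Hnrnpa1 is also the gene of this group with the most listed copies. Of 21 matches at 90% identity or more over at least 100 bases, 19 had a mean below 1 TPM, and Gm10052 and Gm49832 were above it. Both match Hnrnpa1 at 100%, over 752 and 176 bases. The stretch below is shown because Hnrnpa1 and both copies are the same over all 90 bases. The Hnrnpa1 stretch is coding bases 986 to 1075 on chromosome 15 (plus strand). The Gm10052 stretch is transcript bases 827 to 916 on chromosome 9 (minus), and the Gm49832 stretch transcript bases 44 to 133 on chromosome 17 (minus).
Hnrnpa1: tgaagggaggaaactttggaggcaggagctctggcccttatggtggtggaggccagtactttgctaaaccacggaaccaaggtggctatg
Gm10052: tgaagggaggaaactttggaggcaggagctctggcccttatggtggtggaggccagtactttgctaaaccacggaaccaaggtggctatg
Gm49832: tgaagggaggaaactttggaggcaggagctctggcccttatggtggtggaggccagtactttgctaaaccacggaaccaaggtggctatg

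Gm49832 was listed at 6.36, 70.98 and 162.29 TPM in CerM libraries 1 to 3, against 14.40, 51.13 and 0.00 TPM in vehicle libraries 1 to 3. Gm10052 was listed at 34.33, 25.39 and 37.58 TPM in CerM and at 53.57, 44.62 and 15.13 TPM in vehicle. Neither copy separated the groups, and Gm49832 varied far more between libraries than Hnrnpa1 did. The copies made up 4.74% to 43.0% of the TPM of Hnrnpa1 and its copies. How the authors shared reads between them is not given in the sources used here, so the level of Hnrnpa1 is uncertain. The sum of Hnrnpa1 and its copies, which mixes transcripts of different length, was 327.17, 386.95 and 466.01 TPM in CerM libraries 1 to 3, against 352.34, 388.38 and 323.14 TPM in vehicle libraries 1 to 3. Its means, 393 ± 69.6 TPM in CerM and 355 ± 32.7 TPM in vehicle, lay in the opposite order to those of Hnrnpa1 alone (281 ± 13.5 TPM in CerM and 295 ± 12 TPM in vehicle), and the groups overlapped in each case.

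**Figure D2:**
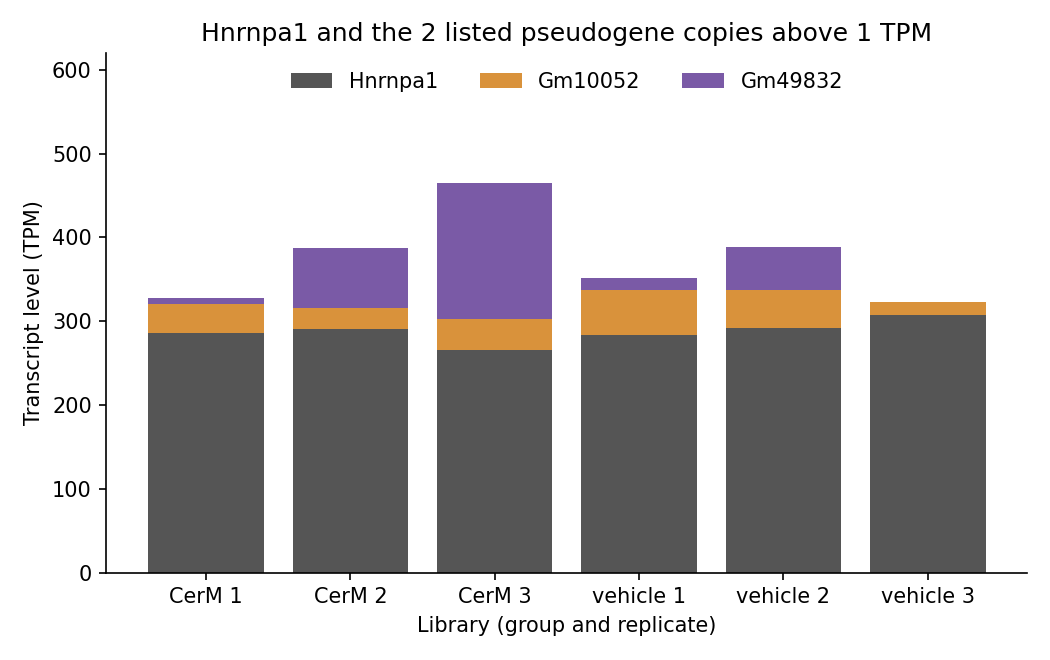
Stacked transcript levels (TPM, from 0) of Hnrnpa1 and of Gm10052 and Gm49832, the listed copies above 1 TPM, in CerM libraries 1 to 3 and then vehicle libraries 1 to 3. Hnrnpa1 itself stays between 265.46 and 307.82 TPM, while Gm49832 runs from 0.00 TPM in vehicle library 3 to 162.29 TPM in CerM library 3.

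Hnrnpa2b1 encodes a reader of RNA sorting signals in neurons and had the highest level of the genes described. It had 502.01, 447.25 and 449.59 TPM in CerM libraries 1 to 3, against 512.44, 535.13 and 470.92 TPM in vehicle libraries 1 to 3. CerM libraries 2 and 3 lay below every vehicle library, and CerM library 1 lay among them. The log2 fold change was −0.12 (−0.33 to 0.09, limma, adjusted p = 0.989), and it stayed below 0 under each of the 17 alternative settings, between −0.19 and −0.02. Its coding sequence is 72.8% identical to that of Hnrnpa1, with a longest identical run of 18 bases.

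Matr3 encodes a nuclear matrix protein that binds RNA and partners TDP-43. It had 247.14, 186.88 and 216.29 TPM in CerM libraries 1 to 3 and 240.49, 231.49 and 199.24 TPM in vehicle libraries 1 to 3. The highest and the lowest of all 6 values were both in CerM. For Matr3 the log2 fold change was −0.05 (−0.35 to 0.24, limma, adjusted p = 0.99). Snhg4, which shares sequence with Matr3 in the annotation, was listed at 1.33, 1.76 and 2.30 TPM in CerM and 1.67, 0.31 and 0.48 TPM in vehicle. The annotation names this same entry Gm28285, which overlaps Matr3 by 25571 bases on the same strand. Snhg4 is therefore an overlapping entry of the Matr3 locus and no separate copy. With it counted as a copy, copies made up 0.591% of the TPM of Matr3 and its copies.

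Over the whole table, limma called 0 of 14916 genes (0%) at an adjusted p below 0.05, with a smallest adjusted p of 0.989, and 402 genes (2.7%) had an unadjusted p below 0.05. The groups did not overlap in 7.3% of genes, 3.26% higher and 4.04% lower in CerM. Of the 5 genes beside Ewsr1, 0 were called, 0 had an unadjusted p below 0.05 and 0 had groups that did not overlap. Ewsr1 was not called either, and its adjusted p is not read as a test. In 17 alternative settings 0 of the 6 genes were called. The intervals of the 5 genes lay within −0.35 and 0.27, which leaves room for differences of up to about that size in either direction.

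**Figure D3:**
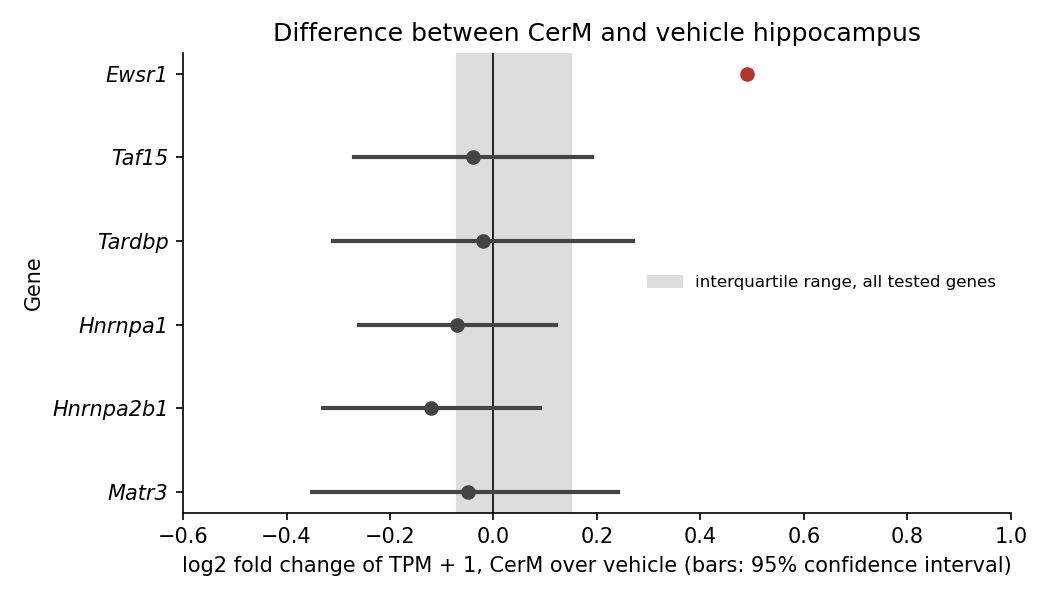
Log2 fold change of TPM + 1, CerM over vehicle, for the 6 genes (points), with 95% confidence intervals of the limma fit for all but Ewsr1, which was chosen for this contrast. The grey band, −0.07 to 0.15, is the interquartile range of 14916 tested genes. Taf15, Tardbp, Hnrnpa1, Hnrnpa2b1 and Matr3 have intervals that include 0, and Ewsr1 lies at 0.49.

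A ratio of Ewsr1 to another gene in the same library does not depend on how that library was scaled. Ewsr1 stood at 6.81, 6.72 and 8.47 times Taf15 in CerM libraries 1 to 3, against 4.70, 5.69 and 4.81 times in vehicle libraries 1 to 3. It stood at 3.41, 3.09 and 3.41 times Tardbp in CerM and 2.59, 2.56 and 1.87 times in vehicle. Relative to both genes the CerM ratios lay above all vehicle ratios.

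Ratios to the hnRNP genes and Matr3 also did not overlap between groups. Ewsr1 stood at 1.33, 1.40 and 1.67 times Hnrnpa1 in CerM and 0.98, 1.18 and 0.84 times in vehicle. It stood at 0.76, 0.91 and 0.99 times Hnrnpa2b1 in CerM and 0.54, 0.65 and 0.55 times in vehicle. Against Matr3 it stood at 1.55, 2.18 and 2.06 times in CerM and 1.16, 1.49 and 1.29 times in vehicle. The differences in log2 ratio to these 5 genes, CerM minus vehicle, ran from 0.51 for Tardbp to 0.61 for Hnrnpa2b1. They share the values of Ewsr1 and are no independent repeats of its difference. The ratio to Hnrnpa1 uses its row alone, whose level is uncertain because of its copies. A difference in log2 ratio to the sum of Hnrnpa1 and its copies was not computed.

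**Figure D4:**
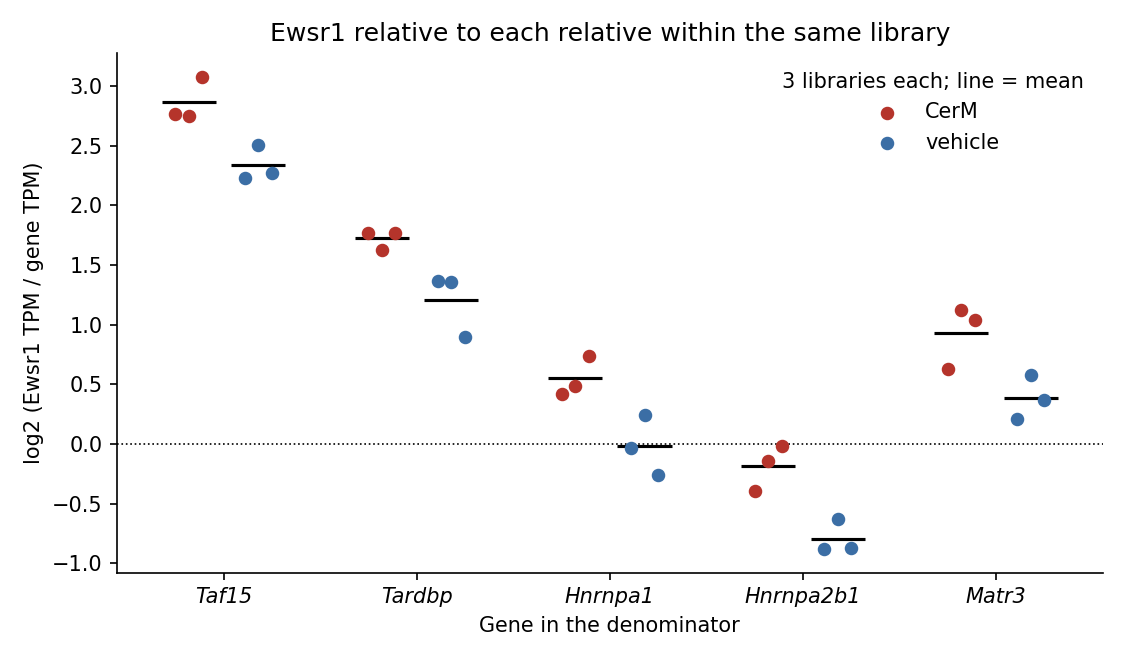
Log2 ratio of Ewsr1 TPM to the TPM of each other gene in the same library, with 3 CerM points left of 3 vehicle points, a line at each mean and a dotted line where both genes have equal levels. CerM lies above vehicle without overlap for Taf15, Tardbp, Hnrnpa1, Hnrnpa2b1 and Matr3, by 0.51 to 0.61.

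The order of levels was largely shared between libraries. Hnrnpa2b1 was highest, and Matr3, Tardbp and Taf15 took the last 3 places in that order, in all 6 libraries. Between them, Ewsr1 lay above Hnrnpa1 in all 3 CerM libraries and in vehicle library 2, and below it in vehicle libraries 1 and 3. This order uses the Hnrnpa1 row alone. Ewsr1 lay above the sum of Hnrnpa1 and its copies in CerM libraries 1 and 2. It lay below that sum in CerM library 3 (444.58 against 466.01 TPM) and in every vehicle library. In vehicle the means of Ewsr1 and Hnrnpa1 were 294 ± 46.2 and 295 ± 12 TPM, a difference smaller than the spread of either. Together the 6 genes held 0.160%, 0.153% and 0.157% of the TPM in CerM libraries 1 to 3, against 0.149%, 0.161% and 0.143% in vehicle libraries 1 to 3, and these shares overlapped.

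Over 6 libraries, on the log2 scale, Pearson's r with Ewsr1 was −0.03 for Taf15, 0.11 for Tardbp, −0.69 for Hnrnpa1, −0.40 for Hnrnpa2b1 and −0.08 for Matr3. These r carry the group difference for which Ewsr1 was chosen. With group means taken off, they were 0.33 for Taf15, 0.34 for Tardbp, −0.52 for Hnrnpa1, 0.32 for Hnrnpa2b1 and 0.14 for Matr3, so the sign differed for Taf15, Hnrnpa2b1 and Matr3. Between Hnrnpa2b1 and Matr3 r was 0.77, and 0.86 with group means taken off. Between Tardbp and Matr3 it was −0.71, and −0.74 with group means taken off. These values come from the same 6 libraries, share their scaling and describe them only. Those for Hnrnpa1 use its row alone, whose level is uncertain because of its copies. Hnrnpa1 alone was lowest in CerM library 3 (265.46 TPM), where Ewsr1 and the sum of Hnrnpa1 and its copies (466.01 TPM) were highest. An r of Ewsr1 with that sum was not computed.

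Among 8816 other tested genes at 10 TPM or more, those whose pattern over the 6 libraries was most like Ewsr1 were Dmd (r = 0.978), Esyt2 (0.955), Rn7s2 and Rn7s1 (0.940 each) and Ankrd50 (0.937). Dmd, the dystrophin gene, had 14.36, 15.25 and 15.56 TPM in CerM libraries 1 to 3 and 12.37, 13.99 and 10.99 TPM in vehicle libraries 1 to 3. Rn7s1 and Rn7s2, copies of the 7SL RNA of the signal recognition particle, carry identical values of 67.43, 58.33 and 79.87 TPM in CerM and 45.27, 51.38 and 32.87 TPM in vehicle, and count as 1 measurement. As no group means were taken off, these r carry the group difference for which Ewsr1 was chosen. They were the highest of 8816, and no test was attached to them.

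Genes that start beside or overlap the 6 genes were read within 1000 bases, on the GENCODE M21 annotation. Rhbdd3, a rhomboid-domain gene that runs the opposite way and overlaps the start of Ewsr1 by 341 bases, had 17.28, 14.61 and 13.09 TPM in CerM libraries 1 to 3 and 12.37, 10.81 and 14.57 TPM in vehicle libraries 1 to 3. Vehicle library 3, the lowest for Ewsr1, was the highest vehicle library for Rhbdd3, and the groups of Rhbdd3 overlapped. Cbx3, which encodes a heterochromatin protein and starts next to Hnrnpa2b1 on the other strand, had 108.53, 82.77 and 89.83 TPM in CerM and 115.38, 113.93 and 85.93 TPM in vehicle. Masp2, which runs opposite to Tardbp and overlaps it by 3118 bases, had 0.57, 1.68 and 0.33 TPM in CerM and 0.42, 0.46 and 1.08 TPM in vehicle. Cbx5, the neighbour of Hnrnpa1, averaged 52.1 TPM in CerM and 51.1 TPM in vehicle. Whether reads were counted by strand is not given in the sources used here, so reads in overlaps cannot be assigned to 1 gene.

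The wider network of RNA-binding and splicing proteins was read through 9 lists. With the 6 genes they held 121 distinct genes, all tested and 0 called. Leaving out Ewsr1, whose groups were apart by the choice of the gene, 1 of 120 (Clk1) had an unadjusted p below 0.05. Groups did not overlap in 7 of the 120, 4 higher and 3 lower in CerM (5.83%, against 7.3% of all tested genes). Their median log2 fold change was 0.02, against 0.034 for all tested genes, with 70 of 120 above 0 against 58.8% of all tested genes.

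The hnRNP genes lay on both sides of 0. The A, B and D group, which includes Hnrnpa1 and Hnrnpa2b1, ran from −0.12 for Hnrnpa2b1 to 0.02 for Hnrnpd, with 3 of 7 genes above 0. Of 19 other hnRNP genes 10 lay above 0 (median 0.01). Ptbp1, the non-neuronal splicing repressor that neurons replace by Ptbp2, had the highest value at 0.41 ± 0.19 (SE), with 19.29, 23.99 and 28.89 TPM in CerM and 16.73, 14.74 and 22.21 TPM in vehicle. Its groups overlapped, since CerM library 1 lay below vehicle library 3, and its value was 0.27 without CerM library 3 and 0.70 with array weights. Raly had the lowest at −0.23 ± 0.12, with 66.73, 71.81 and 72.16 TPM in CerM and 97.39, 75.61 and 76.86 TPM in vehicle. Its groups did not overlap, and without vehicle library 1 its value was −0.12. Syncrip, an mRNA transport factor, also did not overlap between groups, at 33.3 ± 0.676 TPM in CerM and 31.8 ± 0.793 TPM in vehicle.

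Partners and regulators of FET proteins likewise lay on both sides of 0, and 0 of them were called. Tnpo1, the import receptor that carries FET proteins and hnRNP A1 into the nucleus, had 9.32, 9.62 and 10.52 TPM in CerM and 6.81, 9.19 and 10.37 TPM in vehicle, a log2 fold change of 0.16 ± 0.16 (SE). It was 0.01 without vehicle library 1, 0.28 without vehicle library 3 and −0.04 without vehicle library 1 and CerM library 3 together. The 9 import receptor genes had a median of 0.03. Prmt1, the methyltransferase that modifies arginines of FET proteins, had 189.81, 223.98 and 186.98 TPM in CerM and 215.11, 219.28 and 222.13 TPM in vehicle, at −0.13 ± 0.09, and at −0.21 without CerM library 2. The 9 arginine methyltransferase genes had a median of 0.01. Of 5 paraspeckle protein genes 4 lay below 0 (median −0.07), among them Sfpq at 115 ± 2.32 TPM in CerM and 123 ± 8.08 TPM in vehicle, whose groups did not overlap, and Pspc1 at −0.16 ± 0.13. Sfpq was at −0.10, and at −0.04 without vehicle library 2, and Pspc1 was at −0.05 without CerM library 1.

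Genes of stress granules and of the splicing machinery spread to both sides. Of 13 stress granule genes 8 lay above 0 (median 0.05), from −0.13 for Fxr1 (35.9 ± 3.19 TPM in CerM, 39.2 ± 0.497 in vehicle, no overlap) to 0.26 for Tia1 (21.2 ± 5.78 TPM in CerM, 17.3 ± 2.30 in vehicle). Both rest on CerM library 2, without which Fxr1 was −0.06 and Tia1 0.05, and with array weights Tia1 was 0.01. Of 19 genes for U1 and U2 spliceosome components 11 lay above 0 (median 0.03). Sf1, which recognises the intron branch point, had 84.06, 109.66 and 87.36 TPM in CerM and 71.55, 79.59 and 80.29 TPM in vehicle. Its log2 fold change was 0.27, and 0.15 without CerM library 2. Snrpd1, a core spliceosomal protein, lay lowest at −0.22 ± 0.11 (SE).

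The SR protein list held the highest log2 fold change of the 9 lists. Clk1, a kinase that phosphorylates SR proteins, had 39.87, 45.89 and 40.98 TPM in CerM libraries 1 to 3, against 36.11, 33.20 and 23.92 TPM in vehicle libraries 1 to 3. Its log2 fold change was 0.45 ± 0.16 (SE, limma, adjusted p = 0.989), its groups did not overlap, and without vehicle library 3 it was 0.28, more than 1.5 times smaller. Of the 18 genes 13 lay above 0 (median 0.03), and Srsf7 also did not overlap, at 71.8 ± 3.76 TPM in CerM and 66.1 ± 0.472 TPM in vehicle. Of 19 neuronal splicing regulators 14 lay above 0 (median 0.03), from −0.25 for Elavl4 to 0.17 for Qk. Both rest on vehicle library 1, without which Elavl4 was 0.0026 and Qk 0.04, and with array weights Qk was 0.02. Khdrbs3 had the smallest p of that list, at 225 ± 10.2 TPM in CerM and 253 ± 29.4 TPM in vehicle, and its log2 fold change was −0.17, and −0.10 without vehicle library 1. Syncrip, Sfpq and Srsf7 were named after their values were seen.

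**Figure D5:**
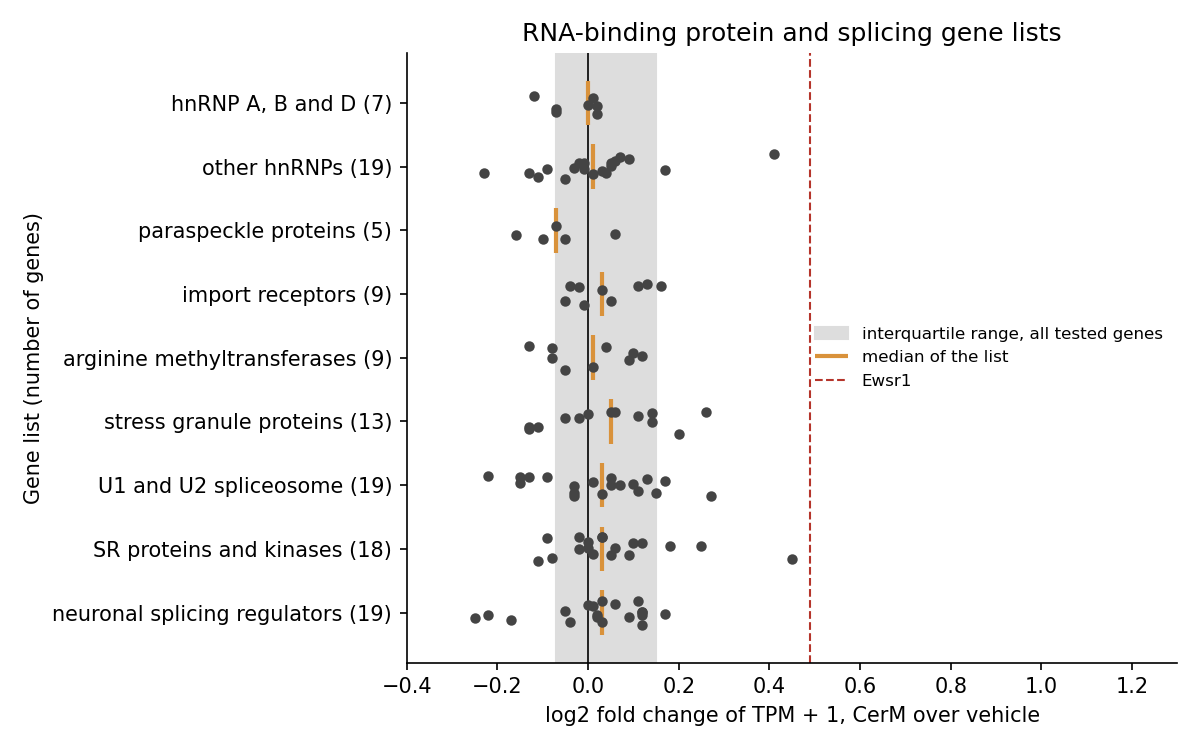
Log2 fold change of TPM + 1, CerM over vehicle, of each gene (points) in 9 lists of RNA-binding and splicing genes, with the number of genes in brackets, an orange line at each list's median, a grey band for the interquartile range of all tested genes (−0.07 to 0.15) and a red dashed line at Ewsr1 (0.49). List medians lie between −0.07 and 0.05, and Clk1 (0.45) and Ptbp1 (0.41) lie farthest to the right.

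Libraries differed in markers of tissues other than the hippocampus. Summed TPM of 7 choroid plexus markers was 9312, 307 and 10961 in CerM libraries 1 to 3 and 253, 262 and 15726 in vehicle libraries 1 to 3. Ewsr1 was highest in CerM library 3 and lowest in vehicle library 3, both high in these markers. The sum of 6 adipocyte markers was 667 in CerM library 3 and 0.45 to 1.80 in the other 5. The sum of 6 neocortex markers was 267 in vehicle library 1 and 110 to 116 in the other 5. The log2 fold change of Ewsr1 was 0.43 without CerM library 3, 0.46 without vehicle library 1, 0.40 without both and 0.40 without vehicle library 3. The sign of these values is fixed by the choice of the gene, and a link of Ewsr1 to these markers was not tested.

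Cell classes of the hippocampus overlapped between groups in each marker sum. These sums ran from 4799 to 5425 TPM in CerM and from 5215 to 5439 TPM in vehicle for 8 neuronal genes, and from 955 to 1243 TPM in CerM and from 808 to 1105 TPM in vehicle for 7 astrocyte genes. For 7 oligodendrocyte genes they ran from 6071 to 7018 TPM in CerM and from 3857 to 6706 TPM in vehicle. For 7 microglial genes the sums were 240 to 293 TPM in CerM and 248 to 270 TPM in vehicle, for 6 endothelial genes 168 to 208 TPM in CerM and 187 to 200 TPM in vehicle, and for 6 proliferation genes 63.5 to 73.3 TPM in CerM and 65.0 to 68.9 TPM in vehicle. Defining markers of hippocampal neurons were present, with sums over 8 genes of 356 to 432 TPM in CerM and 254 to 403 TPM in vehicle. The lowest hippocampal neuron (254 TPM), oligodendrocyte (3857 TPM) and astrocyte (808 TPM) sums were all in vehicle library 1, where neocortex markers were highest. In the other libraries the hippocampal neuron sum was 356 to 432 TPM. No gene of these lists was at 0 in all libraries, and the part of cell composition in the values of Ewsr1 was not tested.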

How the data were processed

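Per the labels' protocols, total RNA was isolated with TRIzol, cleared of genomic DNA with DNase I, and sequenced from TruSeq libraries. The authors deposited TPM values with 2 decimals, with HISAT2, StringTie, RSEM and GRCm39 named in the submitters' processing notes without roles or versions. Columns were matched to samples by title. Library totals ran from 993379 to 995403 TPM, with 14546 to 15058 genes at 1 TPM or more. Depth is unknown, so precision rests on the spread of 3 libraries per group.

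Genes with a mean of at least 1 TPM (14916) were fitted with limma 3.58.1 in R 4.3.3 on log2(TPM + 1) with a variance trend. Tests were two-sided, with Benjamini-Hochberg adjustment over all tested genes, and fold changes understate those of low genes. Python 3.11.15, biopython 1.88 and blastn 2.17.0 were used for copies. The fit was tested on simulated data with independent noise. Changes were placed only in genes with a mean above 10 TPM. The fit recovered 69% of 100 simulated 2-fold changes and 97% of 100 simulated 4-fold changes, and called 9 unchanged genes. Smaller changes, such as the ratio seen for Ewsr1, were not simulated.

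The members and the lists were chosen with earlier results of these data known. Named genes are the members, the gene of smallest p and the extremes of each list, and the 5 genes most like Ewsr1. Alternatives changed the pseudocount, minimum, scaling, variance model, weights, replicate block and libraries. A list that held a gene not reported here was left out.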

Additional observations from a re-analysis of the deposited data

How the results depend on the processing

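The number of called genes was 0 in the main setting and in each setting that kept all 6 libraries, and 0 to 7 with 1 library left out. It was 1 without vehicle replicate 1 and CerM replicate 3 together, an alternative chosen after seeing the data. Each of these genes is at 0 TPM in the remaining libraries of 1 group. Replicate numbers were not taken as pairs, since deviations of same-numbered libraries correlated at 0.01, 0.20 and 0.22, and not all of these exceed 0.1. As a hint from the data, 5 of 6 libraries correlated best with the library of their own number. With a replicate block 0 genes were called and Ewsr1 stayed at 0.49. With array weights 0 genes were called, but 2696 of 14916 had an unadjusted limma p below 0.05, against 402 in the main setting.

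Ewsr1 ran from 0.35 with array weights to 0.61 without vehicle replicate 2, and its sign with libraries left out is fixed by the choice of the gene. Hnrnpa1 (−0.11 to −0.02) and Hnrnpa2b1 (−0.19 to −0.02) stayed below 0. Some values changed sign, and not only those near 0, since Elavl4 was −0.25 in the main setting. With each library left out in turn, Taf15 ran from −0.09 to 0.01, Tardbp from −0.13 to 0.06, Matr3 from −0.15 to 0.05, Elavl4 from −0.43 to 0.0026, Hnrnpab from −0.13 to 0.02, Hnrnpd from −0.0043 to 0.07 and Nono from −0.03 to 0.12. Without vehicle replicate 1 and CerM replicate 3 together, Taf15 was 0.03, Matr3 0.0010, Elavl4 0.10, Hnrnpd −0.01 and Tnpo1 −0.04. Tardbp was 0.01 with quantile normalization, and Hnrnpd −0.01 with median-ratio scaling. With array weights Hnrnpd was −0.04, Nono −0.02 and Prmt6 −0.02. The cause of these changes was not tested. The difference in the share of TPM of the 6 genes was 0.005 percentage points and ran from 0.002 to 0.010. The differences in the 5 log2 ratios ran from 0.358 (Tardbp, without vehicle replicate 3) to 0.718 (Hnrnpa2b1, without CerM replicate 1). Each moved by less than its pooled within-group SD, and some by more than the SD of 1 group. Scaling moved the median of all genes from 0.034 to between 0.000 and 0.048.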
